A study of Mus musculus with 72 samples.

Results

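Itgax, Gpnmb and Cst7 are 3 genes that microglia switch on around amyloid plaques, and they are 3 of the 1266 genes measured here in mouse cortex. They were taken by name from the deposited table. They had been chosen by their measured falls in mice with the M28L variant of Plcg2, and Itgax and Gpnmb also by their rises in mice with the P522R variant. Their differences between genotypes are therefore given as a description with no test. The sex differences, the sex dependence of the variant effects and the covariation among mice of 1 group did not enter that choice and were tested.

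All 36 mice carried the 5xFAD transgenes, human amyloid precursor protein and presenilin 1 genes with familial Alzheimer's disease mutations expressed in neurons, and were 7.5 months old. There were 3 genotypes of 12 mice, 6 females and 6 males each, namely 5xFAD alone, 5xFAD with Plcg2 M28L and 5xFAD with Plcg2 P522R. The labels number 2 of the M28L females 14, and they were counted as separate mice. With their mean as 1 mouse, no call given for the 3 genes changed. The labels do not give the zygosity of the variants, and no group without 5xFAD is compared here. Each mouse gave 1 cortical RNA sample, read by NanoString nCounter, which counts barcoded probes without amplification, on 2 panels. The value of a gene is the authors' normalized log2 value. Recovered depth split by group. On the panel that holds the 3 genes, median totals were 1137287 counts in 5xFAD females and 1104030 in M28L females, against 1630026 and 1665496 in their males, 1802004 in P522R females and 1695631 in P522R males. The tissue label matched its markers, with the neuronal genes Snap25, Syt1 and Camk2a at mean log2 values of 14.51, 13.95 and 13.25.

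Phospholipase C gamma 2, the product of Plcg2, cleaves a membrane phosphoinositide to pass on signals from receptors that include Trem2 with its adaptor Tyrobp. In people the M28L form is associated with a higher and the P522R form with a lower risk of Alzheimer's disease. Near plaques, Trem2 signalling is needed for microglia to move fully from a homeostatic to a disease-associated state, which is defined by genes that include these 3. Cortical RNA mixes all cells, so fewer cells that express a gene and less of its RNA per cell cannot be told apart.

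Itgax encodes integrin alpha X (CD11c), a subunit of a complement receptor, and lies on mouse chromosome 7 from 128129526 to 128150657. Gpnmb encodes a transmembrane glycoprotein of lysosome-rich phagocytes and lies on chromosome 6 from 49036518 to 49058182. Cst7 encodes cystatin F, an inhibitor of lysosomal cathepsins, and lies on chromosome 2 from 150570415 to 150578944. These are RefSeq records on GRCm38.p6, and all 3 are protein-coding genes on the plus strand. Since the 3 genes varied together among mice, the 150 bases before and 30 bases after the transcript start in RefSeq's promoter table are printed. A match to TGANTCA, where N is any base, is in capitals. These letters include TGAGTCA, the site bound by the leucine zipper factors of AP-1.

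Itgax, GRCm38.p6 chr7:128129400-128129579, + strand: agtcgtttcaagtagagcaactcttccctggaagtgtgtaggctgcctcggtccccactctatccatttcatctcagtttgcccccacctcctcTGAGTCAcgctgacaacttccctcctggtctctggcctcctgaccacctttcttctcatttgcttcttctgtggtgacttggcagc

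Gpnmb, GRCm38.p6 chr6:49036368-49036547, + strand: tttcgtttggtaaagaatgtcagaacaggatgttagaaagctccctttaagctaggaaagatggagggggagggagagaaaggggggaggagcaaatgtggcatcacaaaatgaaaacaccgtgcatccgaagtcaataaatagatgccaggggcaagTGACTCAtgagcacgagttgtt

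Cst7, GRCm38.p6 chr2:150570265-150570444, + strand: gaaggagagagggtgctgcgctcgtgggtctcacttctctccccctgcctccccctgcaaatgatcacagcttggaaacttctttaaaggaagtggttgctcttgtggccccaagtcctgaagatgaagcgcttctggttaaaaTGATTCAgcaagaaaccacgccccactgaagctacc

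The match begins 56 bases before the promoter table's transcript start in Itgax, at base 8 after it in Gpnmb and 6 bases before it in Cst7. For Itgax that start lies downstream of the first base of the gene record given above. For Gpnmb and Cst7 the start and that first base are the same. Of 32851 promoter windows of these 180 bases, 4.99% held TGANTCA on either strand. The narrower AP-1 site TGAGTCA, which TGANTCA includes, was found on either strand in Itgax and Gpnmb, not in Cst7, and in 3.33% of windows. GAGGAA (17.54% of windows) and CACGTG (5.09%) were in none of the 3. The window and the 4 motifs were settled after these sequences had been seen, so the matches are a description and do not show that a factor binds.

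Itgax was lowest in the M28L mice and highest in the P522R mice, in both sexes. In 5xFAD females its log2 value ran from 5.49 to 6.67 with a median of 6.18, and in 5xFAD males from 5.68 to 6.03 with a median of 5.79. M28L females ran from 3.69 to 5.86 (median 4.77) and M28L males from 3.72 to 5.33 (median 4.22). P522R females ran from 6.19 to 7.93 (median 7.16) and P522R males from 5.30 to 7.44 (median 6.65). Of the M28L mice, 5 of 6 females and 6 of 6 males lay below every 5xFAD mouse of their sex, and 5 of 6 P522R mice of each sex lay above every one. The group means, in rising order, were 4.40 ± 0.58 in M28L males, 4.79 ± 0.75 in M28L females, 5.83 ± 0.16 in 5xFAD males, 6.16 ± 0.39 in 5xFAD females, 6.6 ± 0.81 in P522R males and 7.08 ± 0.58 in P522R females (SD, n = 6 each). Every pair of neighbours in that order overlapped in range.

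Averaged over the sexes, Itgax was -1.40 ± 0.22 (SE) from 5xFAD in M28L mice, or 2.64-fold lower, the most negative difference of the 1266 genes. With a pseudocount of 20 it was -0.89, or 1.86-fold lower, and the fifth most negative, after Gpnmb among others. It was 0.85 ± 0.22 above 5xFAD in P522R mice, or 1.80-fold, with 56 genes higher still. The P522R mice thus lay 2.25 ± 0.22 above the M28L mice, or 4.74-fold (3.02-fold with that pseudocount). Both variant comparisons use the same 5xFAD mice. Itgax rests on few counts, 9 to 47 per mouse in M28L females and 14 to 40 in M28L males against 90 to 266 in P522R females. In 4 of 6 M28L males and 1 of 6 M28L females its count was at most 1.5 times the median of the 100 dimmest genes of the panel in the same mouse, which no 5xFAD or P522R mouse was. Its level in those 5 mice may not stand above background, so the folds against M28L depend on it. Its SD among 5xFAD males was 0.82 of what counting alone gives, while among P522R males it was 5.14 times that.

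Gpnmb was also lowest with M28L and highest with P522R. In 5xFAD females it ran from 6.63 to 8.12 (median 7.81) and in 5xFAD males from 6.76 to 7.79 (median 7.09). The M28L mice were low, from 5.49 to 6.51 (median 6.03) in females and, tightly grouped, from 5.94 to 6.25 (median 6.10) in males. P522R females ran from 7.65 to 9.85 (median 8.48) and P522R males from 7.02 to 8.63 (median 7.83). All 6 M28L females and all 6 M28L males lay below every 5xFAD mouse of their sex, while 4 P522R females and 3 P522R males lay above every one. In rising order the means were 6.02 ± 0.37 in M28L females, 6.10 ± 0.14 in M28L males, 7.15 ± 0.36 in 5xFAD males, 7.68 ± 0.55 in 5xFAD females, 7.84 ± 0.62 in P522R males and 8.52 ± 0.76 in P522R females (SD, n = 6 each). M28L males and 5xFAD males were the only neighbours in that order whose ranges did not overlap.

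The M28L difference of Gpnmb was -1.35 ± 0.19 (SE), or 2.55-fold lower, second to Itgax. By sex it was -1.66 ± 0.27 in females and -1.05 ± 0.27 in males. The P522R difference was 0.77 ± 0.19, or 1.70-fold higher, and P522R lay 4.34-fold above M28L. Gpnmb was read from 35 to 1007 counts per mouse. Its SD in M28L males was 0.83 of the counting SD, so the spread there is no larger than counting gives.

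Cst7 was lower with M28L but, unlike the other two in their averages, not higher with P522R. It ran from 10.23 to 10.91 (median 10.62) in 5xFAD females and from 9.67 to 10.28 (median 9.84) in 5xFAD males. M28L females ran from 9.33 to 9.98 (median 9.67) and M28L males from 8.41 to 9.97 (median 8.90). P522R females ran from 9.73 to 11.21 (median 10.54) and P522R males from 8.86 to 10.46 (median 10.10). All 6 M28L females and 5 of 6 M28L males lay below every 5xFAD mouse of their sex, whereas the P522R mice lay on both sides of the 5xFAD mice. In rising order the means were 8.94 ± 0.57 in M28L males, 9.65 ± 0.24 in M28L females, 9.92 ± 0.26 in 5xFAD males, 9.95 ± 0.60 in P522R males, 10.44 ± 0.60 in P522R females and 10.61 ± 0.23 in 5xFAD females (SD, n = 6 each), and all neighbours overlapped in range.

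The M28L difference of Cst7 was -0.97 ± 0.17 (SE), or 1.96-fold lower, with 6 genes more negative. The P522R difference was -0.07 ± 0.17, an interval of -0.40 to 0.26 at 2 SE, and P522R lay 0.90 ± 0.17 above M28L. Cst7 was read from 360 to 2625 counts per mouse, and its SD exceeded the counting SD at least 4.08 times in every group.

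**Figure D1:**
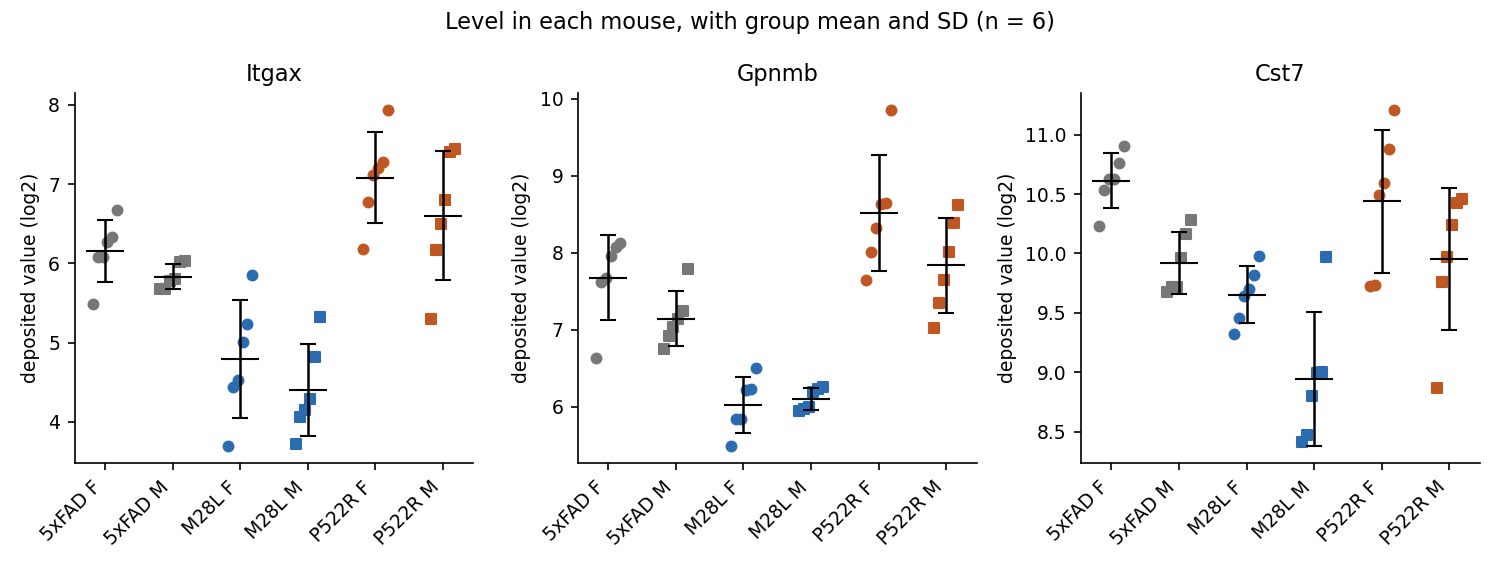
Deposited log2 value of Itgax, Gpnmb and Cst7 (vertical axes) in each mouse, by genotype and sex (F, female, circles; M, male, squares), with black bars for the group mean ± SD (n = 6). M28L mice sit lowest for all 3 genes, at group means of 4.40 and 4.79 for Itgax, while P522R mice sit highest for Itgax and Gpnmb and among the 5xFAD mice for Cst7.

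Single mice tended to be high or low in the 3 genes at once. In 2 of the 6 groups 1 mouse was lowest for all 3 genes, 5xFAD female 1253 and P522R male 27, and in 2 groups 1 mouse was highest for all 3, M28L male 21 and P522R female 24. P522R male 27 was also lowest of its group in the mean of 11 pan-microglia genes, at 7.27 (log2) against 7.68 to 8.18 in the other males. M28L male 21 and P522R female 24 were highest of their groups in that mean as well, at 8.11 and 8.36. Female 1253 was not lowest there, ranking 3 from the lowest of 6 at 8.24. The part of the pan-microglia level in the values of single mice was not tested.

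After each group's mean was subtracted, the 3 genes rose and fell together over the 36 mice. Itgax and Cst7 followed each other most closely, with Pearson r = 0.83 (permutation within groups, p = 1e-05, the smallest it can give, adjusted p = 1e-05) and Spearman rho = 0.83 (p = 1e-05, adjusted p = 3e-05). Gpnmb and Cst7 gave r = 0.69 (permutation p = 1e-05, adjusted p = 1e-05) and rho = 0.62 (p = 0.0002, adjusted p = 0.0003). Itgax and Gpnmb gave r = 0.66 (permutation p = 6e-05, adjusted p = 6e-05) and rho = 0.59 (p = 0.00078, adjusted p = 0.00078). These 3 relations are 1 family, and without the 2 mice farthest from the median of the first-named gene r was 0.82, 0.65 and 0.60 in the same order. Each mouse's values share a library, and r of each gene with its panel's log2 total count was 0.08 for Itgax, 0.09 for Gpnmb and 0.17 for Cst7.

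Within the 6 groups the relation was uneven. Itgax and Cst7 had r from 0.30 to 0.98, Itgax and Gpnmb from 0.18 to 0.97, and Gpnmb and Cst7 from -0.21 to 0.92. In P522R males all 3 pairs reached an exact permutation p of at most 0.00278 and an adjusted p of 0.0167 over the 18 relations, with Spearman rho from 0.94 to 1.0 (adjusted p from 0.05 to 0.1) and r of at least 0.98 without the 2 mice farthest from the median. In 5xFAD females r between Itgax and Cst7 was 0.91 (exact p = 0.0264, adjusted p = 0.0528) but -0.03 without such 2 mice, so it rests on them. Itgax and Gpnmb in the same group had r = 0.90 (exact p = 0.0208, adjusted p = 0.05), and 0.96 without 2 such mice. Spearman rho of that pair was 0.71 (exact p = 0.136, adjusted p = 0.223). Gpnmb and Cst7 there had r = 0.82 (exact p = 0.0556, adjusted p = 0.0833), but 0.14 without 2 such mice. In M28L females, where Itgax ranged over 9 to 47 counts, r was 0.75 for Itgax and Cst7 but 0.18 for Itgax and Gpnmb and -0.21 for Gpnmb and Cst7, with exact p of 0.0819, 0.782 and 0.679. The 5xFAD males, at 48 to 64 Itgax counts, had r = 0.30 for Itgax and Cst7 (exact p = 0.472). Their r was 0.18 for Itgax and Gpnmb (exact p = 0.774) and 0.62 for Gpnmb and Cst7 (exact p = 0.179). Without the 12 P522R mice the pooled r fell to 0.40 for Itgax and Gpnmb and 0.38 for Gpnmb and Cst7 (permutation p = 0.0444 and 0.0159), while Itgax and Cst7 kept 0.72 (p = 5e-05). Whether the relation differs between groups was not tested.

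**Figure D2:**
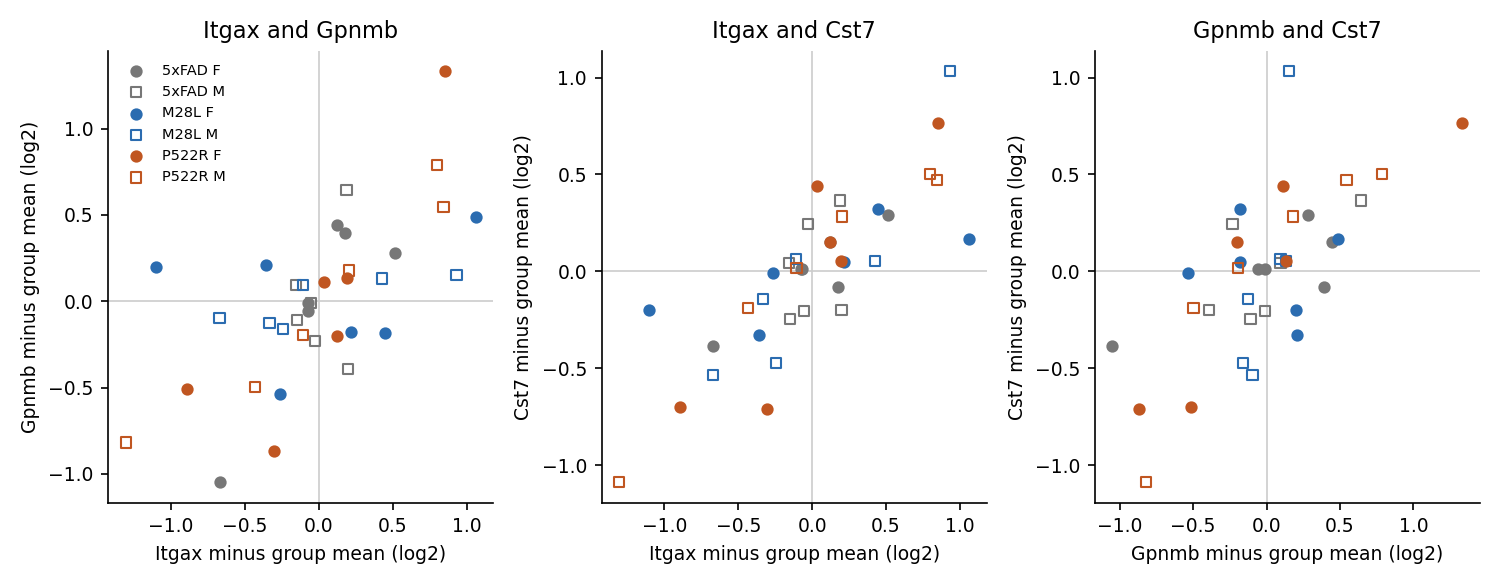
Value of each mouse minus its group mean (log2, both axes) for the 3 pairs of genes, with filled circles for females, open squares for males, grey for 5xFAD, blue for M28L and orange for P522R. Points follow a rising line, most closely for Itgax and Cst7 (r = 0.83 over 36 mice). P522R and M28L mice lie at the ends for that pair. P522R male 27 is at -1.31 for Itgax and -1.09 for Cst7, and M28L male 21 at 0.93 and 1.03.

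The genes also followed the general microglial genes, to different degrees. With the group means subtracted, r with the mean of the 11 pan-microglia genes (such as C1qa and C1qb, complement subunits, and C1qc) was 0.87 for Cst7, 0.67 for Itgax and 0.58 for Gpnmb, given as a description. With the mean of 7 astrocyte genes r was likewise 0.69 for Cst7, 0.63 for Itgax and 0.73 for Gpnmb. With the pan-microglia mean regressed out, an alternative added after the data were seen, the pairs kept r = 0.66 for Itgax and Cst7 (permutation p = 6e-05), 0.47 for Gpnmb and Cst7 (p = 0.00843) and 0.45 for Itgax and Gpnmb (p = 0.0122).

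Among 1144 genes with a mean of at least 20 recovered counts, the genes whose pattern over the 36 mice was most like Itgax included Lpl, lipoprotein lipase (r = 0.78), Ctsd, cathepsin D (0.75), Cxcl16, a chemokine (0.75), and Tgfbr2, a TGF-beta receptor (0.74). The likeness is Pearson r after subtracting group means, with no test. For Gpnmb they were Spp1, osteopontin (0.83), Ctsd (0.78), Gusb, beta-glucuronidase (0.76), Cd34, a sialomucin (0.73), and Cd68, a lysosomal membrane protein (0.72). For Cst7 they included Ctsd (0.89), Tyrobp (0.87), Fcrls, an Fc receptor-like protein of microglia (0.86), and Gusb (0.85). Ctsd was among the 5 for all 3 genes, while Cd34 followed Gpnmb but had r = 0.36 with Itgax and 0.40 with Cst7. The median r over the 1144 genes was 0.07 to 0.09.

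The sex comparison was not used in choosing the genes. All 3 were higher in females, averaged over the 3 genotypes, by 0.63 ± 0.14 (SE) for Cst7, 0.40 ± 0.18 for Itgax and 0.38 ± 0.15 for Gpnmb on the log2 scale, or 1.55-, 1.32- and 1.30-fold. By limma with Benjamini-Hochberg adjustment over 1266 genes the adjusted p was 6.95e-05, 0.0377 and 0.0233. Most genes went the other way in the deposited values, with 83.7% of all genes called lower in females and 2.69%, or 34 genes, called higher, and a median difference of -0.38. This median moved with the scaling, to -0.05 after centring each mouse on its median, so the share of higher calls among all calls went from 3.11% to 42.1%, to 49.2% after quantile normalization and to 25.5% after centring on Gusb and Tbp. The 3 genes stayed higher in females under each of these, by 0.64 to 0.97, so the deposited scale gives the smaller difference. Depth moved with sex in 5xFAD and M28L. On the panel of these genes 5xFAD females had 953461 to 1239109 counts and males 1428825 to 1775622, M28L females had 921565 to 1176360 and males 1593862 to 1740859, and P522R females (1295271 to 1957325) overlapped P522R males (1589745 to 1800708). The median of the 100 dimmest genes was 7.0 to 10.0 counts in the females of 5xFAD and M28L, 15.0 to 17.5 in their males and 15.0 to 23.5 in P522R mice. The labels name no run or cartridge, so sex cannot be told apart from run or depth in 5xFAD and M28L, and depth also moves with P522R against 5xFAD in females.

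The Itgax call was the weakest of the 3. It was lost when any 1 of 12 mice was left out (5xFAD females 1189 and 1248, M28L females 16, 28 and 14-F1, M28L males 9, 11 and 15, P522R females 24 and 49, P522R males 23 and 27), with adjusted p from 0.0502 to 0.0769 by limma. After centring on the pan-microglia genes, Itgax was 0.24 and Gpnmb 0.21 higher in females with adjusted p of 0.0844 and 0.0744 by limma, and Cst7 stayed called at 0.47 (3.6e-06). Of the 11 pan-microglia genes themselves, 5 were called higher in females and 0 lower.

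Within single genotypes the female difference of Cst7 was 0.69 ± 0.24 in 5xFAD (adjusted p = 0.00902 by limma), 0.71 ± 0.24 in M28L (0.00811) and 0.49 ± 0.24 in P522R (0.0643). The last was called without any 1 of 5 mice (M28L male 21, P522R females 8 and 60, P522R males 30 and 31), with adjusted p from 0.0209 to 0.0422 by limma. For Gpnmb it was 0.53 ± 0.27 (0.0729), -0.08 ± 0.27 (0.807) and 0.68 ± 0.27 (0.0249) in the same order. The Gpnmb call in P522R was lost without female 24 (adjusted p = 0.129), male 23 (0.0646) or male 27 (0.0869), by limma. That in 5xFAD was gained without female 1253 (0.0117), male 1268 (0.0324) or P522R female 24 (0.0398), by limma. Itgax differed by 0.33 ± 0.31, 0.40 ± 0.31 and 0.48 ± 0.31 (adjusted p = 0.346, 0.255 and 0.164), none past the threshold, and with single mice left out it ran from 0.19 to 0.62 in M28L and from 0.22 to 0.66 in P522R. Of all genes, 1.82%, 2.92% and 0.79% were called higher and 70.1%, 66% and 68.8% lower in females in 5xFAD, M28L and P522R.

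**Figure D3:**
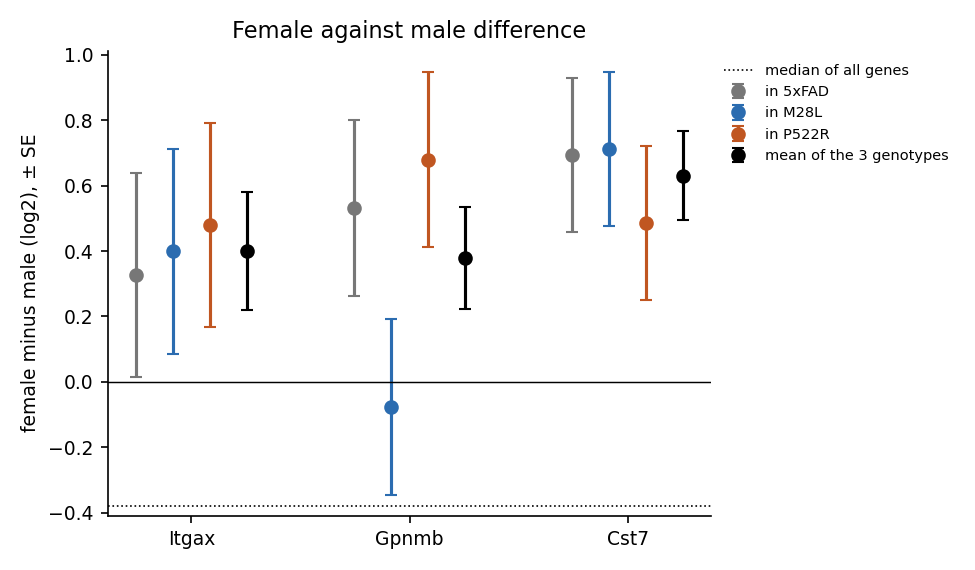
Female minus male difference (log2, ± SE, from limma) of the 3 genes in each genotype and averaged over them (black), with the median of all 1266 genes as a dotted line at -0.38. The averaged differences are 0.40, 0.38 and 0.63, and Gpnmb in M28L, at -0.08, is the one point below 0.

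No sex dependence of a variant effect was detected for the 3 genes. The M28L effect in females minus that in males was 0.07 ± 0.44 for Itgax, -0.61 ± 0.38 for Gpnmb and 0.02 ± 0.33 for Cst7, with unadjusted p of 0.87, 0.117 and 0.958 by limma. No gene of the 1266 (0%) was called in that comparison by limma, and 34 had an unadjusted p under 0.05. At 2 SE the Gpnmb interval, -1.37 to 0.15, does not exclude a larger fall in females. The P522R effect differed between the sexes by 0.15 ± 0.44 for Itgax, 0.15 ± 0.38 for Gpnmb and -0.21 ± 0.33 for Cst7 (adjusted p = 0.834, 0.816 and 0.697 by limma), against 20.9% of all genes called.

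Of a list of 60 disease-associated microglia genes, 40 were measured, these 3 and 37 others. With M28L, 20 of the 37 fell and 1 rose, against 5.61% of all genes called lower and 4.66% higher, and their median difference was -0.29 against 0.00 for all genes. The largest falls were in Ccl3, a chemokine (-1.26 ± 0.13, adjusted p = 1.31e-08 by limma), Cd74, the invariant chain of antigen presentation (-1.19 ± 0.17, 8.99e-06), Cybb, the catalytic subunit of the phagocyte NADPH oxidase (-1.10 ± 0.14, 1.41e-06), and Lilrb4a, an inhibitory receptor (-1.05 ± 0.13, 1.01e-06). Bhlhe40, a transcription factor, was the gene that rose (0.49 ± 0.08, 0.000125). Trem2 and Tyrobp fell by 0.43 and 0.45, adjusted p = 0.0227 and 0.00862 by limma. With P522R, Trem2 was also called lower (-0.31, adjusted p = 0.0309 by limma), and Tyrobp was -0.24 from 5xFAD (0.0629). The list was written with earlier results of these data known, so its direction is no independent evidence. Centring on Gusb and Tbp took the share of higher calls among all calls from 45.4% of 130 to 90.2% of 306. It took the list to 17 lower. Gusb is itself 1 of the 37 list genes and fell with M28L (-0.47, adjusted p = 0.000554 by limma), and the mean difference of Gusb and Tbp, -0.17, is the shift this scaling takes out.

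Pan-microglia genes were lower with M28L in part. In that comparison 4 of the 11 were called lower and 0 higher, with a median of -0.24. Of 19 homeostatic genes, 2 were called lower and 1 higher, with a median of -0.14. Of all genes 5.61% were called lower and 4.66% higher. After each mouse was centred on the pan-microglia genes, Itgax was still -1.06, Gpnmb -1.02 and Cst7 -0.64 from 5xFAD, while 9 of the 37 other list genes, in place of 20, were called lower. That alternative was added after the data were seen, and the share of all genes called after it was not counted.

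With P522R the list genes went both ways. Of the 37 others, 9 rose and 12 fell, against 40.5% of all genes called higher and 24.9% lower, with a median of -0.07 against 0.08 for all genes. The largest rises were in Igf1, a growth factor (0.58 ± 0.12, adjusted p = 0.000122 by limma), Bhlhe40 (0.48 ± 0.08, 6.03e-06), Spp1 (0.45 ± 0.17, 0.0236) and Grn, progranulin (0.44 ± 0.10, 0.000324). The largest falls were in Npc2, a lysosomal cholesterol carrier (-0.64 ± 0.10, 1.02e-06), Clec7a, the receptor dectin-1 (-0.54 ± 0.16, 0.00421), Fth1, ferritin heavy chain (-0.50 ± 0.06, 4.13e-09), and Cd9, a tetraspanin (-0.44 ± 0.09, 8.85e-05). Without P522R male 27, 7 in place of 12 were called lower. Of the pan-microglia genes 6 of 11 were called lower and 0 higher, with a median of -0.17. Centring on them moved the differences of all genes up, to 1.139 for Itgax, 1.06 for Gpnmb and 0.22 for Cst7 against 5xFAD. After it, 20 of the 37 were called higher and 3 lower. The share of all genes called was not counted after that centring or without male 27.

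**Figure D4:**
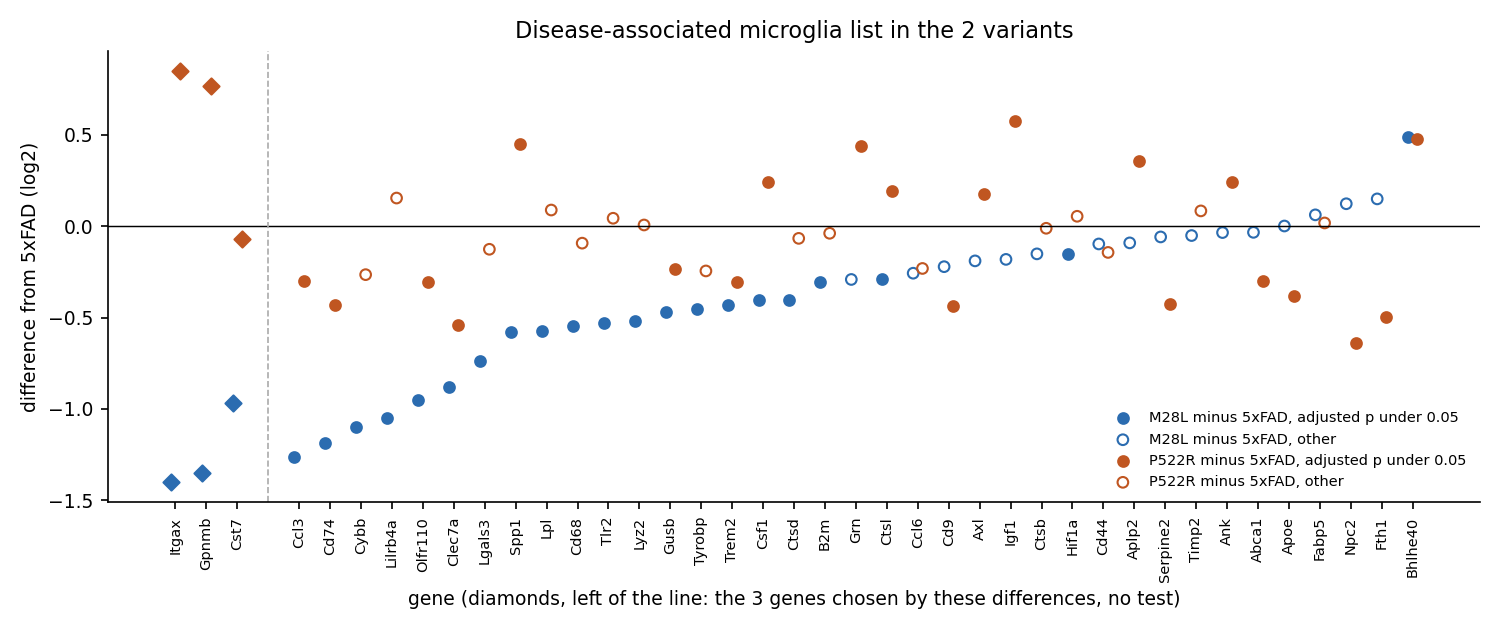
Difference from 5xFAD (log2, vertical axis) of the 37 other list genes, ordered by the M28L difference, in M28L (blue) and P522R (orange), with filled points for adjusted p under 0.05. The 3 chosen genes stand left of the dashed line as diamonds with no test, and 20 of the 37 genes are filled and below 0 for M28L against 12 for P522R.

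The list genes were also counted between the sexes. Of the 34 genes called higher in females, 15 (44.1%) were of the 40 measured list genes, which is 37.5% of the list, counting the 3 chosen genes. Of the 37 others 12 were higher and 15 lower, against 2.69% and 83.7% of all genes, and Clec7a (0.99 ± 0.13) had the largest difference of all 34 genes. The count of 12 went to 25 after median centring, where 42.1% of all calls were higher in place of 3.11%. It went to 6 after centring on the pan-microglia genes, for which the share of all genes was not counted.

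Other cell types that can carry Itgax were thinly measured. Of the dendritic cell list 2 of 13 genes were on the panels, Siglech, which microglia also express, and Cd209e with a mean of 10.3 counts, and neither passed the test in either variant. Of 16 measured NK and T cell genes, 14 were called higher with P522R and 0 with M28L, against 40.5% and 4.66% of all genes. Cd4, the most abundant, averaged 196.5 counts, and the other 15 averaged 5.4 to 17.3, the level of the 100 dimmest genes, whose own median was 7.0 to 10.0 counts in 5xFAD females and 15.0 to 23.5 in P522R females. Of 3 monocyte and border macrophage genes, Fn1 (0.99) and Cd163 (0.80) were higher with P522R, and Fn1 (0.29) with M28L, against the same shares. The summed normalized level of the NK and T cell list, most of it Cd4, had a median of 259.0 in 5xFAD females and 381.3 in P522R females, and of 338.1 and 485.9 in the males. With group means subtracted, r of Itgax with the mean of the 16 NK and T cell genes was 0.15. Single genes of that list ran from -0.36 to 0.29, given as a description. The part of that list in the P522R values of Itgax was not tested.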

How the data were processed

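Cortical RNA of 36 mice (72 records, 2 panels each) was read by NanoString nCounter, per the labels' protocols. The authors deposited 1 table of normalized log2 values, with the normalization method not stated in the labels or the header. Of its 1517 rows, 251 without a gene were left out, leaving 1266 genes. Steps in the linear values gave back whole counts for 100.0% of values within 0.05 counts, on 757 and 509 genes, with these 3 genes among the 757. The labels do not tie these gene sets to panel names.

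The log2 values were fitted with limma 3.58.1 in R 4.3.3 (a mean for each of 6 groups of genotype and sex, all 36 mice, trended eBayes, Benjamini-Hochberg over 1266 genes, two-sided, threshold 0.05), and the script was tested on simulated data. Correlations used 100000 permutations within groups, or exact ones for 6 mice, in Python 3.11.15 with SciPy 1.17.1. The p-values measure the spread between these mice. Alternatives were other scalings, a pseudocount, filters, a replicate block, and leaving out each mouse.

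The members and lists were chosen with earlier results of these data known. Named genes are the 3, Trem2 and Tyrobp, up to 4 called list genes per direction and variant with the largest differences, up to 3 abundant genes of a cell type list, and the 5 genes most like each of the 3, of which 1 is not reported here. Clec7a in the sex comparison was named after its value was seen. Same-numbered mice did not deviate together (median r -0.05 over 22 pairs, 1 over 0.1), so no pairing was used.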

Additional observations from a re-analysis of the deposited data

Results flagged for a closer look

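Gpnmb in 5xFAD female 1253 had a log2 value of 6.63, far from the other 5xFAD females, the next of which was at 7.62. The gap was 0.663 of the group's range, past Dixon's limit for 6 mice, and this was the 1 group past that limit of the 18 tested (3 genes in 6 groups), where chance alone passes about 1 group in 20. The mouse was also lowest for Itgax and Cst7. Without it the female minus male difference of Gpnmb in 5xFAD was 0.74 with an adjusted p of 0.0117 by limma.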

How the results depend on the processing

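In every alternative run, the genotype differences of Itgax and Gpnmb and the M28L differences of Cst7 kept their direction, while the P522R difference of Cst7, within its SE of 0, ran from -0.15 to 0.22. P522R minus M28L of Itgax was 1.60 with a pseudocount of 20 (M28L minus 5xFAD -0.89), a move larger than the SD within groups. Averaged over genotypes, the female difference of Itgax lost its call with the replicate block (0.40, adjusted p = 0.0689) and after centring on pan-microglia genes (0.24), and ran from 0.31 to 0.47 with single mice left out. That of Gpnmb lost it after pan-microglia centring (0.21), and that of Cst7 kept it in every alternative run. The block by index also gave the Cst7 difference in P522R a call (0.65, adjusted p = 0.0392 by limma).

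Within genotypes, calls were gained for Itgax in 5xFAD by quantile normalization (0.74) and in M28L by median (0.75), quantile (0.91) and housekeeping (0.72) centring. Gpnmb in 5xFAD gained a call by median (0.91), quantile (0.96), housekeeping (0.74) and within-panel (0.80) centring, as did Cst7 in P522R by median (0.74), quantile (0.77) and housekeeping (0.75) centring. With M28L mice of index 7 to 9 alone (the number beside the sex letter in the column names), Cst7 in M28L lost its call (0.56) and Itgax turned to -0.0092. Gpnmb in M28L turned positive by median (0.27), quantile (0.35), housekeeping (0.24) and within-panel (0.20) centring. With single mice left out, Gpnmb ran from 0.44 to 0.74 in 5xFAD, -0.17 to 0.031 in M28L and 0.41 to 0.85 in P522R, and Cst7 from 0.27 to 0.63 in P522R.

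The uncalled sex dependence of variant effects changed sign in several fits. For M28L, Itgax was -0.022 with the pseudocount and -0.33 with index 7 to 9, and Cst7 was -0.014 by median centring and -0.13 with index 7 to 9. For P522R, Gpnmb was -0.0046 by quantile normalization. With single mice left out these ran from -0.14 to 0.29 (Itgax, M28L), -0.089 to 0.22 (Cst7, M28L), -0.11 to 0.33 (Itgax, P522R) and -0.12 to 0.32 (Gpnmb, P522R).

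Of the 37 other list genes, the count lower with M28L was 13 without a sex term, 13 with index 1 to 3 and 9 with pan-microglia centring. With P522R the count lower was 7 with the replicate block, 6 without a sex term, 3 with pan-microglia centring and 7 to 14 with single mice left out, and the count higher was 20 with pan-microglia centring. The count higher in females was 25 by median and by quantile centring, 21 by housekeeping, 24 within panels and 6 by pan-microglia centring, and that of pan-microglia genes was 11 by each of the first 3 and 9 within panels. The causes were not tested. Pan-microglia and within-panel centring were added after the data were seen, and housekeeping centring rests on 2 genes. Among all calls between the sexes, the share higher in females went from 3.11% to 42.1% by median and 49.2% by quantile centring. It was 25.5% by housekeeping and 46.4% by within-panel centring. The share of all genes called was not counted for pan-microglia centring, the replicate block or the fit without a sex term. Nor was it counted with index 1 to 3 or with single mice left out. Itgax in M28L, at 9 to 47 counts, is where depth limits most.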
